A study of Mus musculus with 18 samples.

Results

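The genes described here are the receptors for interleukins, colony-stimulating factors (CSF) and interferons, in cells sorted from the mouse embryonic aorta-gonad-mesonephros region (AGM). All symbols that begin with Il, a number and r were taken (Il1rn, which encodes a secreted antagonist, was left out), together with Csf2ra, Csf2rb, Csf2rb2, Csf3r, Ifnar1, Ifnar2, Ifngr1 and Ifngr2. This gave 49 of the 21881 gene symbols counted, and 42 of the 49 passed a filter on low counts (CPM, the count scaled by library size, of at least 0.796 in at least 3 libraries) that 16231 genes passed in all.

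The embryos were of the C57BL6 BRE-GFP reporter strain at E11, and every library came from it. In that strain a BMP-responsive element (BRE) drives green fluorescent protein (GFP), which marks cells with a transcriptional response to bone morphogenetic protein. Cells were sorted as EC (endothelial enriched: CD31 positive, c-Kit negative), HPSC (enriched for hematopoietic progenitors and stem cells: CD31 positive, c-Kit positive) or MC (mesenchymal enriched: CD31 negative, c-Kit negative). Each population was taken from fresh tissue, from explants kept in a culture that the design text describes as containing BMP/Hedgehog, or from the same culture with cyclopamine, which blocks the Hedgehog signal transducer Smoothened. Each was then divided into BRE-GFP positive and BRE-GFP negative cells. This gave 18 libraries, 1 for each of the 18 combinations of 3 populations, 3 cultures and 2 fractions. The gates enrich for cell types and do not make them pure, and the number of embryos behind a library is not given in the sources used here. No combination was repeated, so p-values measure only the spread between these libraries, part of which may be technical.

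Cytokine receptors of this class are built from chains that are combined in several ways. A private chain binds 1 or a few ligands, and a shared chain (the common beta chain for GM-CSF, IL-3 and IL-5, the common gamma chain for IL-2, IL-4, IL-7, IL-15 and IL-21) completes the complex and signals through JAK kinases and STAT transcription factors. Receptors of the IL-1 and IL-17 families signal through other adaptors, and the former include decoys that bind ligand without signalling. In the embryo such receptors are known from blood progenitors and tissue macrophages, and several interferon and IL-6 family chains are made by most cell types.

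Of the 42 tested receptors, 12 differed between HPSC and MC and 6 between MC and EC, whereas none passed edgeR's test between HPSC and EC, between BRE-GFP fractions or between cultures. The common gamma chain gene Il2rg, the common beta chain gene Csf2rb, the interferon gamma receptor genes Ifngr1 and Ifngr2, the IL-10 receptor chain gene Il10rb and the IL-18 receptor chain gene Il18rap were lower in MC than in both other populations. Il11ra1, the ligand-binding chain for IL-11, was higher in MC than in HPSC.

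Some of these receptors have near-identical copies that bear on what can be counted, and their first 90 coding bases are shown for that reason, with the bases that differ between the 2 copies in capitals. Csf2rb lies at chr15:78325752-78353847 (plus strand) and its copy Csf2rb2, which encodes the beta chain that pairs with the mouse IL-3 receptor alpha chain, at chr15:78282507-78305721 (minus strand), in GENCODE M21 on GRCm38, the build that mm10 names. Il11ra1 lies at chr4:41699989-41769474 (plus strand) and Il11ra2 at chr4:42656355-42661893 (minus strand).
Csf2rb: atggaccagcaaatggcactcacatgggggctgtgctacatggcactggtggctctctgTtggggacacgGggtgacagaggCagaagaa
Csf2rb2: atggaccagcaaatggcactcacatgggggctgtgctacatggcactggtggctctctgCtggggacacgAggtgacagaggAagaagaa
Il11ra1: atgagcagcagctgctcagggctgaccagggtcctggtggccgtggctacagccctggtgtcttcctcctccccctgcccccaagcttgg
Il11ra2: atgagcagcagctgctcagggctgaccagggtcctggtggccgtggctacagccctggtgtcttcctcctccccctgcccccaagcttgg
The 90 bases of Csf2rb and Csf2rb2 differed at 3 positions, and those of Il11ra1 and Il11ra2 at 0 positions. Over the coding sequence, Csf2rb and Csf2rb2 were identical at 95.2% of 2628 aligned bases, with 1 identical run of 242 bases, and Il11ra1 and Il11ra2 at 99% of 1296, with a run of 356. Of all stretches of 50 bases, 26.0% of those in Csf2rb also stood in Csf2rb2, and 59.2% of those in Il11ra1 also stood in Il11ra2. Reads from such stretches cannot be assigned to 1 copy, so the levels of these 4 genes are uncertain. Il11ra2 had 0 counts in all 18 libraries, which beside Il11ra1 at 23.4 to 109 CPM says only that no read was assigned to that copy.

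The promoter sides of 4 receptors that were higher in HPSC than in MC are shown because these genes moved together between populations: the 250 bases upstream of the RefSeq start (GRCm38.p6) of Il2rg, Il21r, Il18rap and Ifngr1, the called receptors whose RefSeq start is also the GENCODE start. Capitals mark matches, on either strand, to 4 short motifs that were searched. The first was GAGGAA, the core sequence bound by the ETS family factor PU.1, and the second was TGTGGT, which is bound by RUNX family factors. The third was AGATAA, which is bound by the zinc finger factors of the erythroid and progenitor programme, and the last was TTCNNNGAA, the palindrome bound by STAT factors. The stretches are chrX:101268256-101268505 (minus strand) for Il2rg, chr7:125603179-125603428 (plus) for Il21r, chr1:40515112-40515361 (plus) for Il18rap and chr10:19591699-19591948 (plus) for Ifngr1.
Il2rg: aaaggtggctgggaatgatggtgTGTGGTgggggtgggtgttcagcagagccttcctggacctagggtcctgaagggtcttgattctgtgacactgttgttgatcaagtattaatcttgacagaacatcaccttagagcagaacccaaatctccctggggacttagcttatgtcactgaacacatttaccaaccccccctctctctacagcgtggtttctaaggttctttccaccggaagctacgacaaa
Il21r: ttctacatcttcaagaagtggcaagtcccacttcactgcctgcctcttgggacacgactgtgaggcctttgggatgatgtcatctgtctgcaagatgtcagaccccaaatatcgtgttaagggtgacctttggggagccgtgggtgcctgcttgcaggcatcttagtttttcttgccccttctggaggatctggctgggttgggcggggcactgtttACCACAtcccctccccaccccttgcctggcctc
Il18rap: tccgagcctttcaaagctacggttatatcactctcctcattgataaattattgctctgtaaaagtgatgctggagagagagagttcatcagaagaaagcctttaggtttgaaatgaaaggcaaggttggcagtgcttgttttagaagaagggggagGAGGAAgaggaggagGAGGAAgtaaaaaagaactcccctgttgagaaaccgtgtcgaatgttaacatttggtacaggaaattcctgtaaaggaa
Ifngr1: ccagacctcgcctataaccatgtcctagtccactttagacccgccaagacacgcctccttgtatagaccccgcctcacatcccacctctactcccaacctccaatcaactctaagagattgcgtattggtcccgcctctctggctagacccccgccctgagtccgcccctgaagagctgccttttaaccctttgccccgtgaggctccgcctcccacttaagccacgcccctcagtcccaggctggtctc
Il2rg and Il21r each held 1 TGTGGT match, Il18rap held 2 GAGGAA matches and Ifngr1 held none of the 4 motifs. Of the 12 receptors called between populations, 10 had a RefSeq promoter entry, with 11 windows in all. GAGGAA stood in 4 of the 11 windows (Csf3r, Il11ra1, Il18rap and Il22ra1) and in 23.3% of the 32851 windows of the same length in the RefSeq table. It also stood in 16 of the 46 windows of all receptors with an entry. Il11ra1 and Il22ra1 were the receptors lower in HPSC than in MC. TGTGGT stood in 3 (14.0% of all windows, Il11ra1, Il21r and Il2rg), TTCNNNGAA in 2 (7.02%, Il1r2 and Il7r) and AGATAA in 1 (9.99%, Il22ra1). Over the 46 receptor windows these 3 motifs stood in 6, 7 and 8. A match is a match of letters and not a bound site.

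Depth and the gates bear on every value. Libraries held 3041249 to 21972063 reads assigned to genes and 10297 to 18816 detected genes. Of uniquely placed reads, 19.5 to 49.4% overlapped no counted feature (the no-feature share), and whether they lay within or outside genes is not known. The library with the fewest detected genes of each population (EC cyclopamine negative, HPSC cyclopamine negative and MC fresh positive) had 22, 20 and 22 of the 42 tested receptors at 0, against 0 to 14 in the other libraries. Endothelial markers were detected in all 6 EC libraries (9 of 9 genes, summed level 498 to 8139 CPM), and so were macrophage markers (10 of 10, 1079 to 7550 CPM). Mesenchymal markers summed to 2532 to 7617 CPM in MC and 988 to 6713 CPM in EC, and the EC label is therefore used here for the gate and not for a pure cell type. Kit itself was higher in HPSC (769.7 ± 233 CPM, SD, n = 6) than in EC (132 ± 69.9) and MC (97.9 ± 55.7). In bulk RNA, fewer cells of a type and less RNA per cell cannot be told apart.

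**Figure D1:**
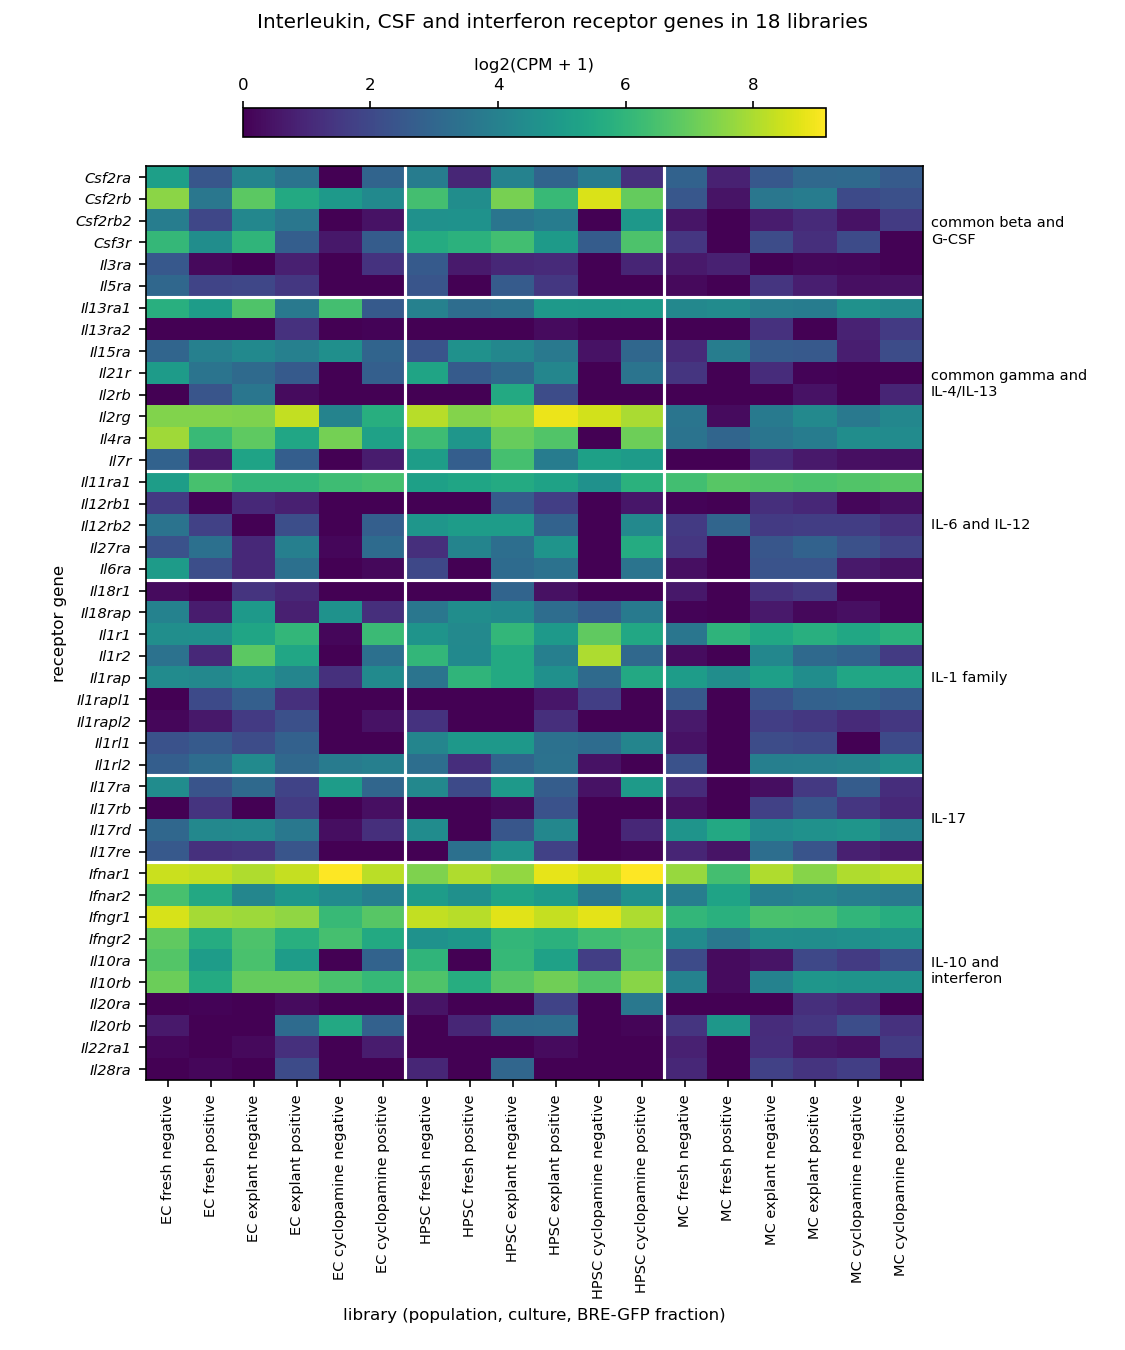
Levels of the 42 tested receptor genes (rows, grouped by family) in the 18 libraries (columns, ordered by population, culture and BRE-GFP fraction). Colour gives log2(CPM + 1) and white lines separate families and populations. The summed level of all 49 receptors was 504 to 758 CPM in MC, 913 to 2175 in EC and 1260 to 2267 in HPSC.

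Between HPSC and MC, 12 of 42 receptors passed the test (28.6%, with 9.95% of all 16231 genes passing in the same comparison). The test was edgeR's quasi-likelihood test within blocks of the same culture and fraction, with a Benjamini-Hochberg adjusted p under 0.05 over all genes. Higher in HPSC were 10 receptors (4.1% of all genes), and lower were Il11ra1 and Il22ra1 (5.85% of all genes). Il22ra1 reached the level of the low-count filter in no HPSC library, so its place in these counts carries no weight. HPSC lay above MC without overlap for 8 receptors (3% of all genes did so) and below MC for 1, Il11ra1 (4.85%). The median fitted log2 fold change was 1.27 over the 42 receptors and -0.38 over all genes. With the share of reads at no feature as a covariate 7 receptors passed (3.19% of all genes), and without the 3 libraries of fewest detected genes 14 passed (12% of all genes), 9 of them among the 12.

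Il2rg encodes the common gamma chain. Its level was 173, 271 and 468 CPM (lowest, median and highest of 6 libraries) in HPSC, 15.99, 167 and 312 in EC and 0.200, 12.3 and 18.7 in MC. HPSC lay above MC throughout, and EC and MC overlapped through the single low EC cyclopamine negative library. The log2 fold change was 4.66 ± 0.70 (SE of the fit) in HPSC over MC (adjusted p = 0.00043) and -3.62 ± 0.70 in MC against EC (adjusted p = 0.0068), in the same direction in 6 of 6 blocks each time.

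Among the chains that pair with it, Il7r, the IL-7 receptor alpha chain of lymphoid progenitors, stood at 5.62, 32.0 and 85.1 CPM in HPSC and at 0, 0.281 and 1.09 CPM in MC. Every HPSC library was above every MC library, and the log2 fold change was 6.81 ± 1.27 (adjusted p = 0.0025). EC lay between, at 0, 3.09 and 38.9 CPM, and its one high library was EC explant negative. Il21r, the IL-21 receptor chain, stood at 0, 9.05 and 39.4 CPM in HPSC and at 0, 0.0347 and 1.66 CPM in MC, and the groups overlapped because 1 HPSC library (cyclopamine negative) was at 0. Its log2 fold change was 5.45 ± 1.35 (adjusted p = 0.020), with an adjusted p of 0.11 with the no-feature covariate and of 0.055 without MC explant positive.

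No other receptor of the common gamma and IL-4/IL-13 group passed. Il4ra, the chain for IL-4 and IL-13, reached 230.1 CPM in EC and 139 in HPSC, with 6.99 to 21.2 CPM in MC, but was at 0 in HPSC cyclopamine negative (adjusted p = 0.081 in HPSC over MC and 0.087 in MC against EC). Il2rb, the signalling chain for IL-2 and IL-15, was at 0 in 11 of 18 libraries and reached 45.7 CPM in HPSC explant negative. Il15ra, the private IL-15 chain, ranged from 0.377 to 23.7 CPM over all libraries. Il13ra1, which forms the IL-13 receptor with Il4ra, ranged from 4.97 to 97.5 CPM, and Il13ra2, a decoy for IL-13, did not exceed 1.94 CPM. Il2ra and Il9r were below the low-count filter, with at most 33 and 44 counts in a library.

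Csf2rb encodes the common beta chain for GM-CSF, IL-3 and IL-5. It stood at 21.4, 105 and 389 CPM in HPSC, 11.3, 38.2 and 186 in EC and 0.399, 4.16 and 13.4 in MC. HPSC lay above MC throughout, with a log2 fold change of 4.69 ± 0.69 (adjusted p = 0.00034). MC was below EC in 6 of 6 blocks, by a log2 fold change of -3.44 ± 0.65 (adjusted p = 0.0055), although the highest MC library (13.4, explant positive) was above the lowest EC library. The copy Csf2rb2 did not pass (0 to 28.6 CPM in HPSC, 0 to 1.99 in MC, log2 fold change 3.91 ± 1.57, adjusted p = 0.13).

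Csf3r, the receptor for G-CSF and a gene of the granulocyte lineage, stood at 5.28, 52.9 and 94.5 CPM in HPSC, 0.520, 13.5 and 67.6 in EC and 0, 1.52 and 3.33 in MC. HPSC and MC did not overlap, and the log2 fold change was 5.11 ± 1.38 (adjusted p = 0.027), with an adjusted p of 0.075 without MC fresh negative. The private alpha chains were low: Il3ra, for IL-3, did not exceed 5.04 CPM in any library, and Il5ra, for IL-5, did not exceed 7.33 CPM. Csf2ra, for GM-CSF, had medians of 9.75 CPM in HPSC, 8.42 in EC and 5.76 in MC, with a log2 fold change of 0.33 in HPSC over MC that did not pass.

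Ifngr1, the ligand-binding chain of the interferon gamma receptor, stood at 259, 318 and 437 CPM in HPSC, 69.7, 208 and 385 in EC and 50.7, 64.4 and 90.1 in MC. HPSC lay above MC throughout (log2 fold change 2.33 ± 0.32, adjusted p = 0.000205), and MC lay below EC in 6 of 6 blocks (-1.48 ± 0.32, adjusted p = 0.016, or 0.068 without MC fresh negative). Ifngr2, the second chain, stood at 24.2, 61.4 and 90.1 CPM in HPSC, 45.4, 69.0 and 119 in EC and 11.6, 21.7 and 25.7 in MC. MC lay below EC throughout (-1.88 ± 0.41, adjusted p = 0.017, or 0.11 without EC fresh negative), and HPSC over MC gave 1.44 ± 0.41 (adjusted p = 0.033), which rose to 0.053 without the 3 libraries of fewest detected genes and to 0.072 with the no-feature covariate. The type I interferon receptor genes did not pass between populations: Ifnar1 ranged from 85.0 to 564 CPM and Ifnar2 from 11.3 to 87.9 CPM over the 18 libraries.

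Il10rb, the chain shared by the receptors for IL-10, IL-22 and interferon lambda, stood at 50.4, 105 and 179.9 CPM in HPSC, 47.3, 108 and 136 in EC and 0.200, 19.8 and 27.2 in MC. MC lay below both other populations without overlap. The log2 fold change was 2.90 ± 0.54 in HPSC over MC (adjusted p = 0.0024) and -2.75 ± 0.54 in MC against EC (adjusted p = 0.0073). Its partner Il10ra, the IL-10 binding chain, was detected at up to 103 CPM in EC and 101 in HPSC and 3.62 in MC, but at 0 in EC cyclopamine negative and HPSC fresh positive, and did not pass (adjusted p = 0.13 in HPSC over MC). Il22ra1, the IL-22 binding chain, was lower in HPSC than in MC at levels near the detection limit: 5 of 6 HPSC libraries were at 0 and the MC libraries ranged from 0 to 1.99 CPM, or at most 44 counts. Its log2 fold change was -5.21 ± 1.495 (adjusted p = 0.040), with an adjusted p of 0.37 with the no-feature covariate and of 0.063 without the 3 libraries of fewest detected genes. Il22ra1 reached the 0.796 CPM of the low-count filter only in MC libraries and in EC explant positive (1.41 CPM). Its direction here was thus tied to the filter and carries no weight. Il20ra, Il20rb and Il28ra, chains for IL-20 family cytokines and interferon lambda, did not pass and had medians of at most 3.32 CPM in every population.

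In the IL-1 family, Il18rap, the accessory chain of the IL-18 receptor, stood at 5.28, 11.9 and 21.5 CPM in HPSC, 0.629, 8.44 and 28.8 in EC and 0, 0.100 and 0.544 in MC. MC lay below both other populations throughout, with a log2 fold change of 7.11 ± 1.34 in HPSC over MC (adjusted p = 0.0027) and -5.69 ± 1.27 in MC against EC (adjusted p = 0.020, or 0.076 without EC explant negative). The ligand-binding chain Il18r1 did not pass in either comparison: it was at 0 in 4 of 6 HPSC libraries and did not exceed 6.67 CPM. Il1r2, a decoy receptor for IL-1, stood at 7.47, 32.5 and 260.1 CPM in HPSC and 0, 4.22 and 17.6 in MC, with overlap. Its log2 fold change was 4.59 ± 1.35 (adjusted p = 0.040), and the adjusted p was 0.19 without HPSC cyclopamine negative, which holds the highest value, and 0.36 with the no-feature covariate. Il1rl1, the IL-33 receptor chain of mast cells and some lymphoid cells, had all HPSC libraries (8.29 to 28.4 CPM) above all EC (0 to 6.18) and all MC libraries (0 to 3.33), yet its adjusted p was 0.49 against EC and 0.083 against MC.

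The signalling IL-1 receptor Il1r1 and the accessory chain Il1rap did not pass in either comparison with MC, with medians of 37.1 and 33.8 CPM in HPSC, 31.6 and 18.9 in EC and 48.4 and 33.3 in MC. Il1rl2, the IL-36 receptor chain, had medians of 4.03 CPM in HPSC, 10.8 in EC and 14.6 in MC. Il1rapl1 and Il1rapl2, known from neurons, did not exceed 6.70 and 3.69 CPM.

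Among IL-6 and IL-12 family chains, Il11ra1 was the one that passed. It stood at 81.5, 100.2 and 109 CPM in MC, 32.7, 71.2 and 88.8 in EC and 23.4, 38.9 and 55.6 in HPSC. HPSC and MC did not overlap, and the log2 fold change in HPSC over MC was -1.32 ± 0.32 (adjusted p = 0.014, or 0.094 with the no-feature covariate). Il6ra, Il27ra, Il12rb1 and Il12rb2, chains for IL-6, IL-27 and IL-12, did not pass: their highest levels were 31.6, 48.1, 5.16 and 32.2 CPM. Il12rb2 was at 6.34 to 32.2 CPM in 5 of 6 HPSC libraries and at 1.40 to 6.99 CPM in MC. Il23r and Il31ra were below the filter. Of the IL-17 receptor genes, Il17ra, Il17rb, Il17rd and Il17re were tested and none passed, and Il17rc was below the filter. Il17rd, also known as a regulator of FGF signalling, had medians of 24.3 CPM in MC, 9.51 in EC and 2.72 in HPSC.

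**Figure D2:**
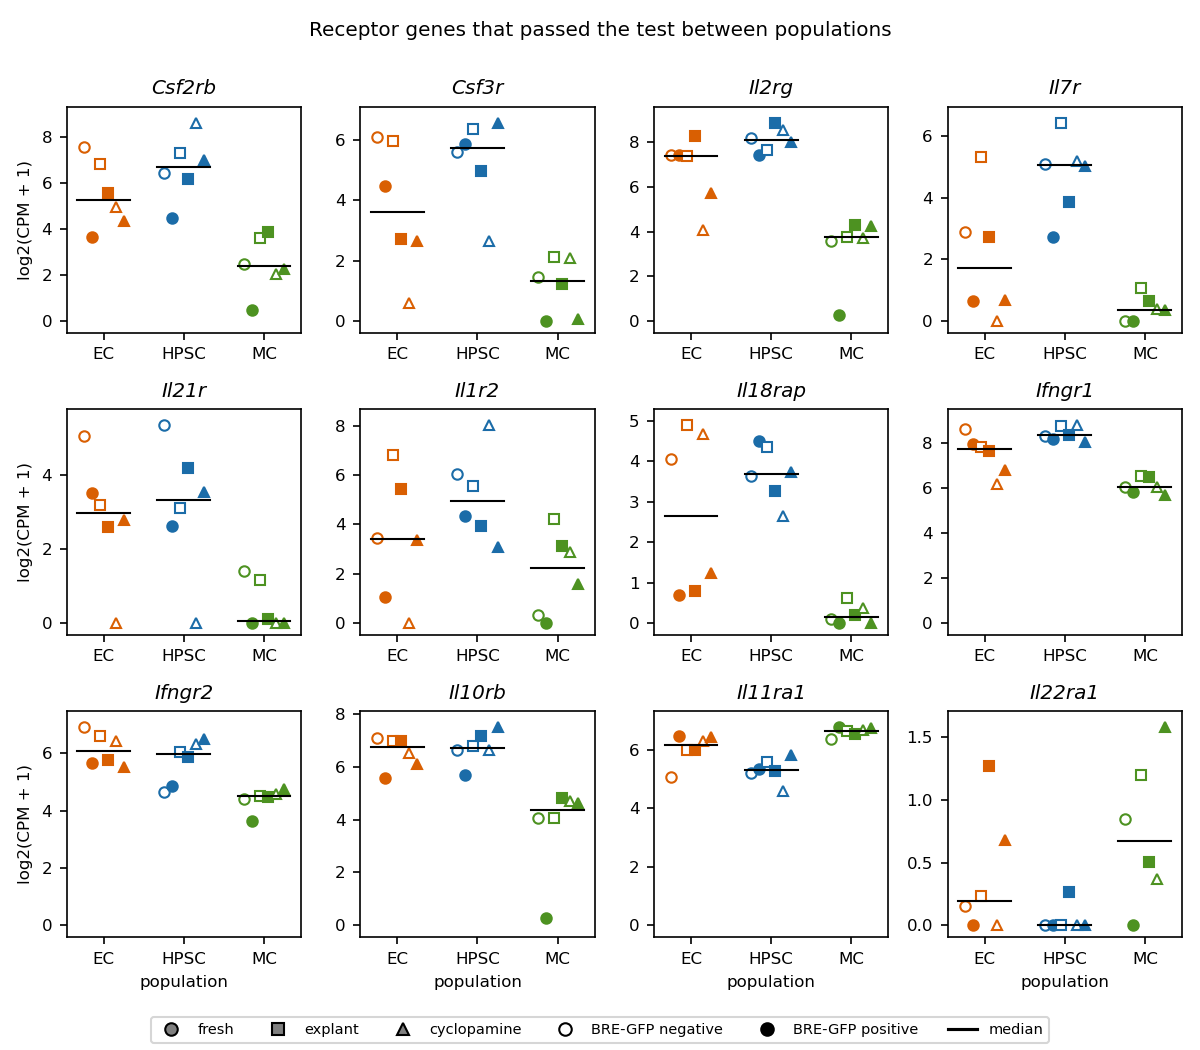
Level, as log2(CPM + 1), of the 12 receptors that passed the test in at least 1 comparison between populations. Each point is 1 library, its shape gives the culture, filled points are BRE-GFP positive, and black lines are medians of 6 libraries. MC points lie lowest for Il10rb and Il18rap without overlap, and highest for Il11ra1 against HPSC.

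Between MC and EC, 6 of 42 receptors passed (14.3%, with 2.54% of all genes), all lower in MC (2.29% of all genes in that direction): Csf2rb, Il2rg, Il10rb, Ifngr1, Ifngr2 and Il18rap, whose values are above. The median fitted log2 fold change was -0.91 over the 42 receptors and 0.20 over all genes. Groups did not overlap for 4 receptors, Ifngr2, Il10rb, Il18rap and Il4ra (2.3% of all genes did so in that direction). Without the 3 libraries of fewest detected genes 10 receptors passed, among them all 6 (3.69% of all genes passed), and DESeq2 called 13 (7.68%). Leaving out EC fresh negative or MC fresh negative left 3 each time, with 1.6% and 1.78% of all genes.

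Markers of other cell types also differed between the populations. Macrophage markers (10 of 10 tested genes lower in MC than in EC and than in HPSC) summed to 56.2 to 187 CPM in MC, 1079 to 7550 in EC and 689 to 5545 in HPSC. Granulocyte markers summed to 10.9 to 246 CPM in MC, 51.6 to 3330 in EC and 842 to 11313 in HPSC, and mast cell markers to 1.40 to 76.6, 30.3 to 248 and 241 to 1298. For both lists the MC and EC sums overlapped. Of 8 tested granulocyte markers, 3 were higher in HPSC than in MC and 5 were lower in MC than in EC, and of 8 tested mast cell markers 5 and 1. Between HPSC and EC the granulocyte markers split. Mpo, which reached 9615 CPM and made up much of the HPSC sum, was higher in HPSC (mean 3881 against 593 CPM in EC). Camp (5.96 against 78.2 CPM) and Ltf (2.16 against 116 CPM) were lower in HPSC. The median fitted log2 fold change of the 8 in HPSC over EC was -1.95. Endothelial markers summed to 64.6 to 230 CPM in MC, 498 to 8139 in EC and 385 to 7644 in HPSC, with 9 of 9 higher in HPSC than in MC and 8 of 9 lower in MC than in EC. Megakaryocyte markers summed to 17.4 to 40.3 CPM in MC, 772 to 3881 in EC and 64.4 to 509 in HPSC. Eosinophil and basophil markers summed to 0.226 to 2.78, 4.82 to 1948 and 8.38 to 1192 CPM in MC, EC and HPSC, in that order. The 9 lymphoid markers include Il7r, one of the receptors. The other 8 summed to at most 52.5 CPM in HPSC, 6.47 in EC and 3.57 in MC, and 1 of them was at 0 in all HPSC libraries and 2 in all EC libraries. Of the tested hematopoietic progenitor markers, 6 of 9 were higher in HPSC than in MC and 3 of 9 were lower in MC than in EC. Not every list was lowest in MC. Mesenchymal markers summed to 2532 to 7617 CPM in MC, 988 to 6713 in EC and 286 to 917 in HPSC. Of the 9 mesenchymal markers, 8 were lower in HPSC than in MC, 5 were lower in HPSC than in EC and 0 passed between MC and EC. Erythroid markers summed to 496 to 28215 CPM in MC, 32.0 to 3435 in EC and 1895 to 15169 in HPSC. Of 7 tested erythroid markers 0 passed between populations. Neural crest markers summed to 118 to 609, 10.3 to 115 and 0.837 to 16.1 CPM in the same order. Of the 7 neural crest markers, 3 were higher in MC than in EC and 6 were lower in HPSC than in MC. The MC label, too, is used for the gate. The part of these cells in the receptor differences was not tested.

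**Figure D3:**
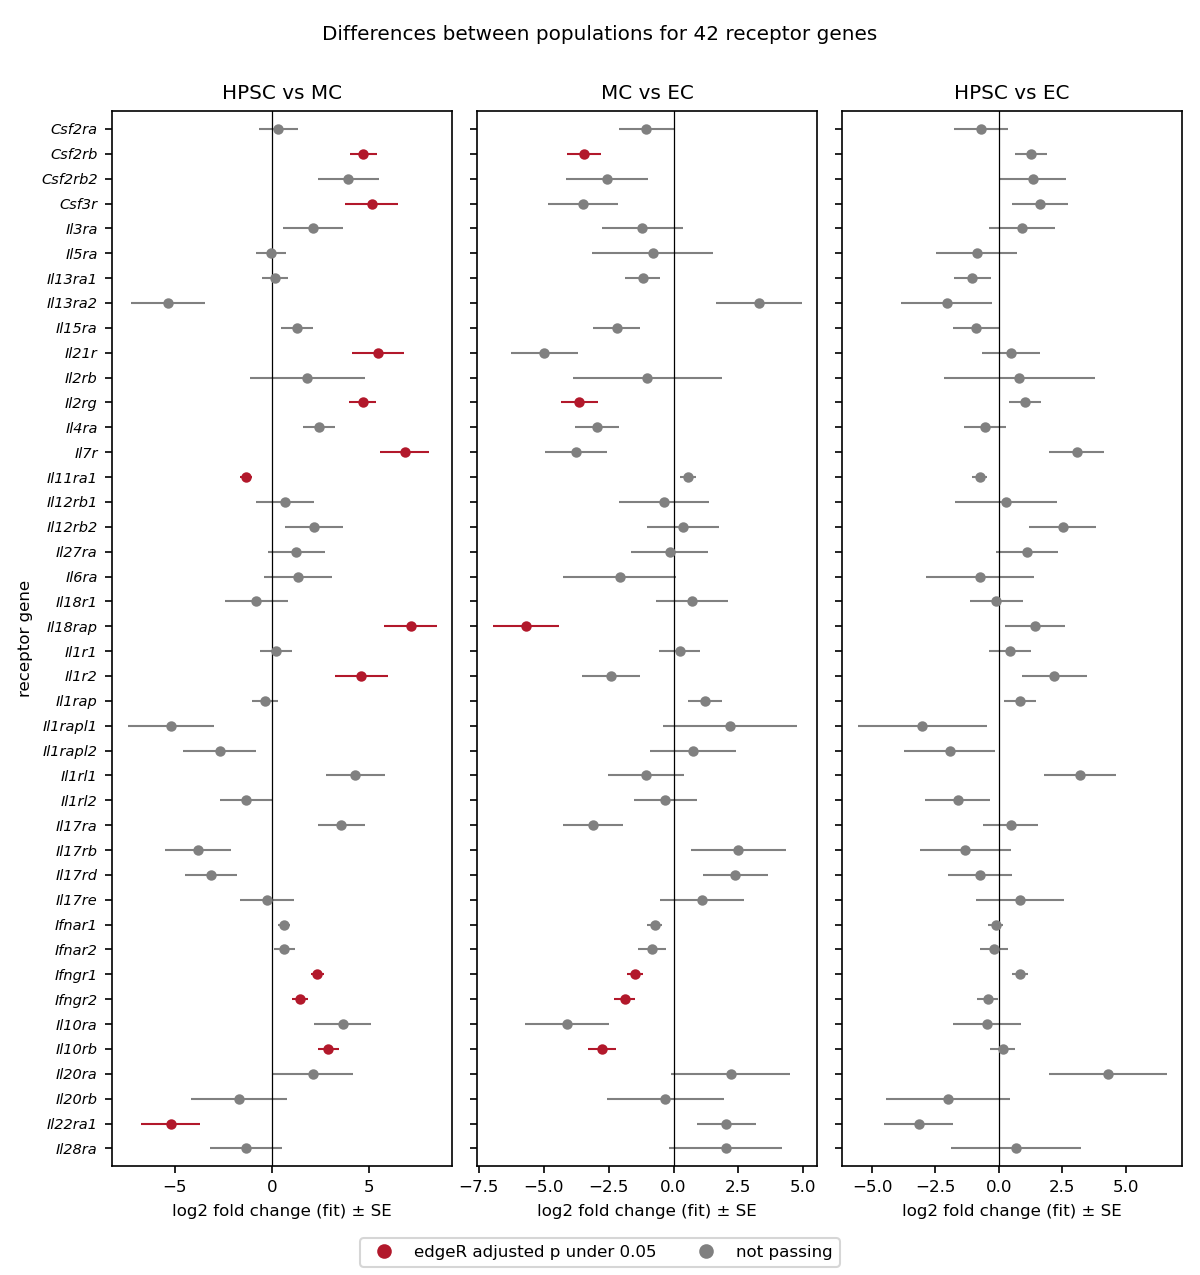
Fitted log2 fold change (x axis) with its SE for the 42 tested receptors (y axis, in family order) in HPSC against MC, MC against EC and HPSC against EC. Red points passed the edgeR test (adjusted p under 0.05): 12, 6 and 0 receptors.

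Between HPSC and EC, 0 of 42 receptors passed the edgeR test (0.32% of all genes did). At an unadjusted p under 0.05 there were 5 receptors (11.9%, with 9.32% of all genes), and DESeq2 called 2, Il7r and Il11ra1 (4.9% of all genes). The 3 receptors of lowest p were Il7r (34.0 ± 27.8 CPM in HPSC and 8.67 ± 15.1 in EC, SD, n = 6 each; log2 fold change 3.07 ± 1.10, adjusted p = 0.33, higher in HPSC in 6 of 6 blocks), Ifngr1 (339.99 ± 73.0 and 204 ± 111 CPM; 0.85 ± 0.32, adjusted p = 0.38, 5 of 6) and Il11ra1 (39.9 ± 10.8 and 68.9 ± 20.8 CPM; -0.76 ± 0.31, adjusted p = 0.44, lower in 5 of 6). Il1rl1 was the only receptor whose HPSC and EC libraries did not overlap (0.203% of all genes did so higher in HPSC).

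The order of chains within a population was read from levels per length, in CPM per kb of exon. In HPSC the order by mean was Il2rg (175 ± 65.9, SD, n = 6), Ifngr1 (161 ± 34.5), Ifnar1 (85.6 ± 39.0), Il10rb (61.3 ± 23.8), Il1r2 (48.4 ± 67.8) and Csf2rb (26.9 ± 24.9). Each neighbour in this order differed from the next by less than the larger of their SDs, except Ifngr1 and Ifnar1. In EC the order was Ifngr1 (96.4 ± 52.7), Ifnar1 (89.6 ± 27.5), Il2rg (88.1 ± 62.5), Il10rb (53.5 ± 19.4) and Il11ra1 (27.5 ± 8.29), in which each differed from the next by less than the larger SD, except Il10rb and Il11ra1. In MC it was Ifnar1 (55.7 ± 19.96), Il11ra1 (39.2 ± 4.09), Ifngr1 (32.6 ± 7.94), Il10rb (9.70 ± 5.39), Il1r1 (7.25 ± 2.92) and Il2rg (7.21 ± 3.97), with Ifngr1 and Il10rb the only neighbours that differed by more. Il2rg thus stood at rank 1 of 49 in HPSC, 3 in EC and 6 in MC, Csf2rb at 6, 9 and 19, and Il11ra1 at 7, 5 and 2.

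On the same per-length scale, the median of a shared chain was above that of each partner set beside it here, except for Csf2rb against Csf2ra in MC and for Il1rap against Il1r1 in all 3 populations. Il2rg was above Il7r, Il21r and Il2rb in 18 of 18 libraries (6 of 6 in each population), and above Il4ra in 6 of 6 HPSC, 5 of 6 EC and 5 of 6 MC libraries. Csf2rb was above Csf2ra in 6 of 6 HPSC and 5 of 6 EC libraries but in 0 of 6 MC libraries, where medians were 0.795 for Csf2rb and 3.10 for Csf2ra. It was above Il3ra in 6 of 6 HPSC, 6 of 6 EC and 5 of 6 MC libraries, and above Il5ra in 6 of 6 libraries of each population. Il10rb was above Il10ra, Ifngr1 above Ifngr2 and Ifnar1 above Ifnar2 in 6 of 6 libraries of each population, with HPSC medians of 151 for Ifngr1 and 16.6 for Ifngr2. Il1rap was below Il1r1 in 5 of 6 libraries of each population, and above Il1rl1 in 4 of 6 HPSC, 6 of 6 EC and 6 of 6 MC libraries. The decoy Il1r2 was above the signalling receptor Il1r1 in 5 of 6 HPSC, 3 of 6 EC and 1 of 6 MC libraries.

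**Figure D4:**
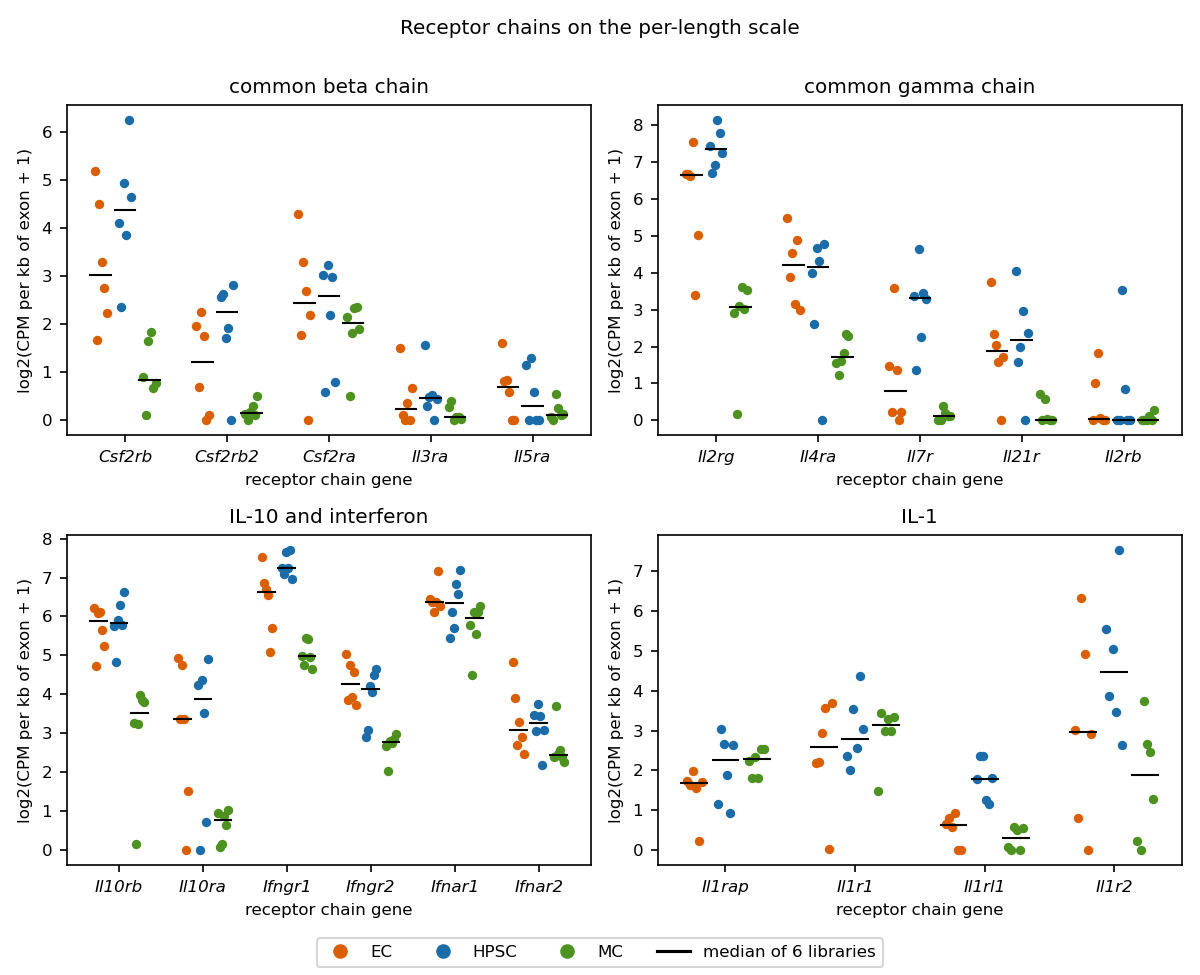
Levels of shared and private receptor chains as log2(CPM per kb of exon + 1), so that genes of different length can be set side by side. Each point is 1 library, colours are the 3 populations and black lines are medians of 6 libraries. The medians of Il2rg, Il10rb, Ifngr1 and Ifnar1 lie above those of their partners, and Csf2rb lies below Csf2ra in MC.

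Between BRE-GFP positive and negative cells, 0 of 42 receptors passed the edgeR test over 9 pairs of the same population and culture (0.0554% of all genes did). At an unadjusted p under 0.05 there were 2 (4.76%, with 5.30% of all genes), and DESeq2 called 1, Csf2rb (2.29% of all genes). Csf2rb stood at 3.15, 84.2 and 389 CPM (lowest, median and highest of 9) in negative and at 0.399, 19.2 and 125 in positive libraries. The ranges overlapped, and the positive library was the lower one in 3 of 3 EC, 3 of 3 HPSC and 1 of 3 MC pairs (log2 fold change -1.42 ± 0.46, adjusted p = 0.65). Il18rap stood at 0.0616, 11.3 and 28.8 CPM in negative and 0, 0.739 and 21.5 in positive libraries, lower in the positive library of 7 of 9 pairs (-2.47 ± 1.09, adjusted p = 0.92). The 3 MC pairs, all among these 7, had at most 8 Il18rap counts in a library. Its 3 EC pairs were 15.5 and 0.629 CPM in fresh, 28.8 and 0.739 in explant and 24.6 and 1.35 in cyclopamine cells, negative first, while in HPSC it was higher in the positive library of 2 of 3 pairs. Il1r2 stood at 0, 17.6 and 260.1 CPM in negative and 0, 7.64 and 41.7 in positive libraries, lower in 8 of 9 pairs (-1.78 ± 0.87, adjusted p = 0.98). Summed granulocyte markers were also lower in the positive library of 9 of 9 pairs, at 2700 to 3330 against 51.6 to 582 CPM in EC, 4477 to 11313 against 842 to 1802 in HPSC and 25.3 to 246 against 10.9 to 33.8 in MC, negative first. Of the 8 granulocyte markers 2, Camp and S100a9, passed as lower in positive cells, and the median fitted log2 fold change of the 8 was -4.43. Other lists moved as well, with 0 markers passing. Their medians were 1.83 for endothelial, -0.66 for macrophage and -2.59 for eosinophil and basophil markers. Endothelial sums were 498 and 8139 CPM in EC fresh cells, negative first, but 71.7 and 70.2 in MC cyclopamine cells. Macrophage sums were 7550 and 1252 in EC fresh but 2358 and 5545 in HPSC cyclopamine cells. The part of these cells in the receptor values was not tested.

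A test of whether the BRE-GFP difference itself varied between populations called 0 of 42 receptors (0% of all genes), with 1 receptor and 369 genes at an unadjusted p under 0.05. The lowest p belonged to Il28ra (0.042), Ifnar1 (0.052) and Il18rap (0.057), each with an adjusted p of 1 in edgeR.

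**Figure D5:**
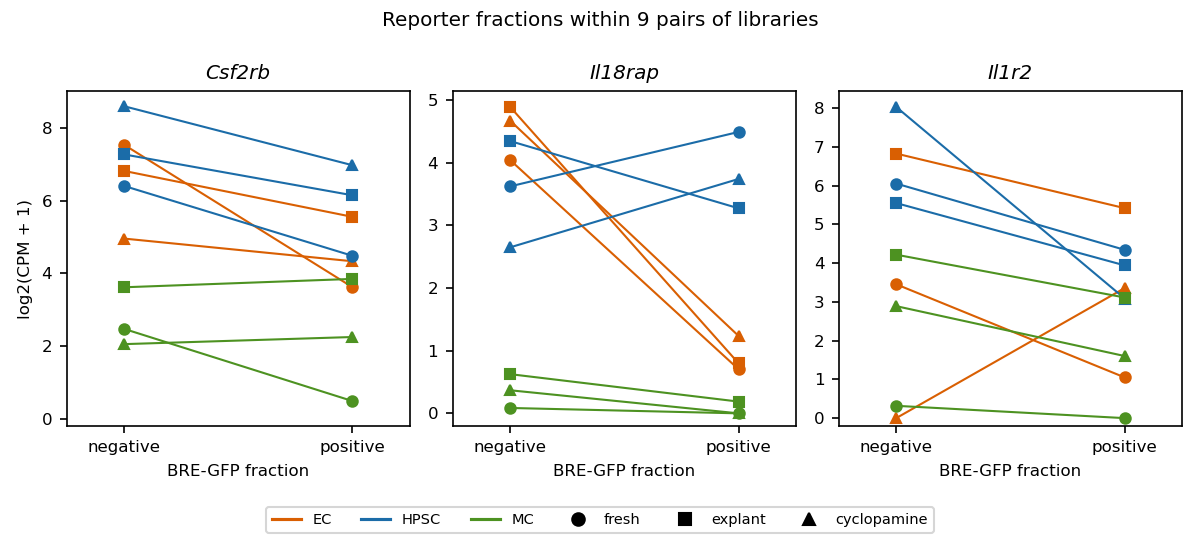
Level, as log2(CPM + 1), of the 3 receptors of lowest p in BRE-GFP negative and positive cells. Each line joins the 2 libraries of 1 population and culture (9 pairs), with colour for population and shape for culture. Csf2rb falls along all 6 EC and HPSC lines, Il18rap along the 3 EC lines, and Il1r2 along 8 of 9 lines, and none of the 3 passed the test.

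Between explant and fresh cells, 0 of 42 receptors passed (0.136% of all genes did), with 7 at an unadjusted p under 0.05 (16.7%, with 8.58% of all genes). DESeq2 called 1, Il1r2 (2.98% of all genes), and limma-voom 1, Il18r1 (1.02% of all genes). The fitted change was above 0 for 37 of 42 receptors (88.1%) and for 59.8% of all genes, with medians on the log2 scale of 0.82 and 0.18. Il18r1 stood at 0, 0 and 0.493 CPM in fresh and 0.334, 1.51 and 6.67 in explant libraries, higher in 6 of 6 blocks (4.53 ± 1.55, adjusted p = 0.37). It passed the low-count filter through explant libraries only, so its direction was tied to the filter and carries no weight. Il7r stood at 0, 3.09 and 32.8 CPM in fresh and 0.556, 9.53 and 85.1 in explant libraries, higher in 6 of 6 blocks (2.77 ± 1.07, adjusted p = 0.42). Il1r2 stood at 0, 5.51 and 65.4 CPM in fresh and 7.64, 29.7 and 112 in explant libraries, higher in 4 of 6 (3.25 ± 1.27, adjusted p = 0.42). Explant libraries also had the most detected genes (14010 to 18816, against 12028 to 17848 in fresh and 10297 to 17118 in cyclopamine libraries) and the highest share of reads at no feature (35.0 to 49.4%, against 21.7 to 41.96% and 19.5 to 33.01%). Of the 8 granulocyte markers 1, Ltf, was higher in explant cells, with a median fitted log2 fold change of 3.08 over the 8. The part of these in the receptor values was not tested.

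Whether the explant change varied between populations was tested in 1 model, which called 0 receptors (0% of all genes), with 1 receptor and 162 genes at an unadjusted p under 0.05. The lowest p in edgeR belonged to Il1r2, Il20rb and Ifngr1, each with an adjusted p of 1.

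With cyclopamine, 0 of 42 receptors passed against explants without it (0% of all genes), with 5 at an unadjusted p under 0.05 (11.9%, with 8.13% of all genes). DESeq2 called 1, Il17re (1.06% of all genes), and limma-voom 1, Il18r1 (0.191%). Fitted changes were above 0 for 6 of 42 receptors (14.3%) and 34.2% of all genes. This comparison and that of explant with fresh cells share the 6 explant libraries. Il18r1 was at 0 in all 6 cyclopamine libraries and had 161 counts over the 6 explant libraries, where its pooled level was at least 51.4-fold higher than 3 counts over the cyclopamine group, a bound that covers counting error only (edgeR adjusted p = 0.36). Il17re, a chain of the IL-17C receptor, stood at 0, 0.0456 and 0.758 CPM with cyclopamine and 1.60, 4.27 and 24.4 without (-5.06 ± 1.67, adjusted p = 0.37). Il12rb1 stood at 0, 0.0583 and 0.456 CPM with and 0.739, 1.21 and 5.16 without (-3.60 ± 1.53, adjusted p = 0.53). Cyclopamine libraries lay below explant libraries without overlap for 4 receptors, these 3 and Il5ra, while 1.02% of all genes did so. Il18r1 reached the 0.796 CPM of the low-count filter in explant libraries only, and Il12rb1 elsewhere only in EC fresh negative (1.97 CPM). Both were thus tested because of their explant levels. Their direction here was tied to the filter, and neither their place in this count nor the bound for Il18r1 carries weight. The 3 genes lay below 25 CPM in these libraries, and the fitted sign of Il17re and Il12rb1 turned to 2.71 and 0.96 with the no-feature share as a covariate. That share did not overlap between these cultures, so covariate and culture cannot be told apart here.

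Against fresh cells, 0 of 42 receptors passed with cyclopamine (0.129% of all genes did), with 4 at an unadjusted p under 0.05 (9.52%, with 7.21% of all genes), and DESeq2 called 1, Ifnar1 (2.37% of all genes). Ifnar1 stood at 85.0, 239.7 and 340.4 CPM in fresh and 267, 333 and 564 in cyclopamine libraries, higher in 5 of 6 blocks (0.83 ± 0.25, adjusted p = 0.45). Its partner Ifnar2 stood at 13.6, 35.1 and 87.9 CPM in fresh and 11.3, 14.0 and 23.7 in cyclopamine libraries, lower in 5 of 6 (-1.20 ± 0.53, adjusted p = 0.64). Il21r stood at 0, 7.76 and 39.4 CPM in fresh libraries and was at 0 in 4 of 6 cyclopamine libraries, with a highest level of 10.5 (-3.52 ± 1.61, adjusted p = 0.66).

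The other genes of these pathways were taken from lists of ligands, related receptors, JAK and STAT genes, feedback inhibitors and adaptors. Beside their counts stand the shares of all genes that passed: 4.1% higher and 5.85% lower in HPSC than in MC, 2.29% lower in MC than in EC, and 0.32% in either direction between HPSC and EC. Of 24 tested ligand genes, 3 were higher and 2 lower in HPSC than in MC, and 3 were lower in MC than in EC. Il1b, the inflammatory cytokine IL-1 beta, stood at 79.5 ± 22.2 CPM in HPSC, 42.01 ± 29.3 in EC and 1.96 ± 2.46 in MC (SD, n = 6 each; log2 fold change 5.91 ± 0.86 in HPSC over MC, edgeR adjusted p = 0.00031). Il16, a chemoattractant cytokine, stood at 132 ± 55.7, 63.7 ± 28.0 and 7.42 ± 3.95 CPM in the same order (4.19 ± 0.60, adjusted p = 0.00027). Il12a, a subunit of IL-12 and IL-35, stood at 37.8 ± 32.6, 6.41 ± 5.63 and 0.165 ± 0.218 CPM (8.17 ± 1.47, adjusted p = 0.0019). Il33, the ligand of Il1rl1, went the other way, with 9.51 ± 10.5 CPM in HPSC and 81.1 ± 57.1 in MC (-3.27 ± 0.81, adjusted p = 0.017), as did Il34, a ligand of Csf1r, at 0.167 ± 0.409 and 1.48 ± 0.910 CPM (-5.62 ± 1.59, adjusted p = 0.034).

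Of 16 tested related receptors, 5 were higher and 1 lower in HPSC than in MC, 3 were lower in MC than in EC, and 1, Kit, was higher in HPSC than in EC (log2 fold change 2.62 ± 0.47, edgeR adjusted p = 0.031). Kit was also used in the sort. Csf1r, the macrophage CSF receptor and itself one of the macrophage markers, stood at 403 ± 332 CPM in HPSC, 418 ± 422 in EC and 19.8 ± 13.8 in MC (4.24 ± 0.60 in HPSC over MC, adjusted p = 0.00025). Sigirr, an inhibitory member of the IL-1 receptor family, stood at 55.6 ± 28.5, 27.4 ± 18.1 and 4.66 ± 6.54 CPM in the same order (4.19 ± 0.68, adjusted p = 0.00083). Flt3 was also higher in HPSC than in MC and Ghr, the growth hormone receptor, lower.

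Downstream, 1 of 11 JAK and STAT genes passed between HPSC and MC (9.95% of all genes did). It was Stat4, which acts after IL-12 and stood at 47.3 ± 9.09 CPM in HPSC and 1.43 ± 1.32 in MC (5.63 ± 1.15, edgeR adjusted p = 0.0048). Of 12 feedback inhibitors, Ptpn6, a phosphatase of blood cells, was higher in HPSC than in MC (277 ± 197 against 13.9 ± 8.42 CPM; 4.15 ± 0.54, adjusted p = 0.000104) and lower in MC than in EC (-3.29 ± 0.51, adjusted p = 0.00089), and Pias3, an inhibitor of STAT3, was lower in HPSC than in MC (-1.62 ± 0.37, adjusted p = 0.011). None of 13 adaptors of the IL-1 and IL-17 receptors passed between populations.

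Below the filter on low counts stood Il11ra2, Il17rc, Il22ra2, Il23r, Il2ra, Il31ra and Il9r. Il22ra2, a soluble IL-22 binding protein, had 5 counts, all in MC explant positive. Il23r, the IL-23 receptor chain, had 168 of its counts in HPSC explant negative (13.3 CPM) and at most 22 in any other library. The library with the most receptors detected was EC explant positive, with 47 of 49, and the one with the fewest EC cyclopamine negative, with 20.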

How the data were processed

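The 18 deposited tables hold whole-number read counts per gene symbol, with no normalization; per the submitters' processing notes TopHat, Cufflinks and HTSeq were used on mm10. Nothing in the sources used here gives their versions, the gene annotation or whether strand was used, so overlapping and antisense genes cannot be told apart. RNA was extracted with mirVana and amplified by the SMARTER protocol, per the labels' protocols. Reads assigned to no gene (19.5 to 49.4% at no feature and 0.479 to 0.935% ambiguous, of those uniquely placed) entered neither library sizes nor tests.

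Groups came from the sample titles. All 18 libraries were fitted together in edgeR 4.0.16 (R 4.3.3; TMM scaling, quasi-likelihood test) over 16231 genes with a CPM worth 10 counts in a library of median size, in at least 3 libraries. Populations and cultures were compared within 6 blocks (10 residual degrees of freedom), BRE-GFP fractions within 9 pairs (8), and differences of effects in 1 interaction model (6). Common biological variation (BCV) was 0.884 to 0.922. Benjamini-Hochberg adjustment ran over all genes. CPM used TMM-scaled library sizes, and SDs run over libraries. The scripts were tested on simulated counts. Alternatives were RLE scaling, no filter, DESeq2 1.42.0, limma-voom (limma 3.58.1), the no-feature share as a covariate and leaving out each library. Leaving out 3 libraries together was chosen after seeing the data.

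The receptors and the pathway and marker lists were chosen with earlier results of these data known. Named were the receptors called in any comparison, the 3 of lowest p where fewer than 3 passed, the receptors at 0 in all libraries, and up to 4 genes per other list. One result is not reported here. Other receptors were given by their range, and Il1rl1 was singled out after its values were seen, for its lack of overlap. Lengths and coordinates came from GENCODE M21, in which 48 of 49 symbols matched directly and Il28ra by its synonym. Sequences were read with Biopython 1.88.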

Additional observations from a re-analysis of the deposited data

Results flagged for a closer look

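In groups of 6 libraries of 1 population, 6 of 36 series of values for the called receptors had a highest library that stood apart from the others by Dixon's criterion. Its nominal rate of 1 group in 20 holds for repeat libraries with normally distributed values. The 6 libraries here differ in culture and fraction, and the receptors were those called. The number of flags can therefore not be set against that rate. Csf2rb was at 389 CPM in HPSC cyclopamine negative, with 21.4 to 155 CPM in the other HPSC libraries. Il1r2 was at 260.1 CPM in the same library, with 7.47 to 65.4 CPM in the others. That library had the lowest total, 3041249 counts, and 20 of 42 tested receptors at 0. Il1r2 was at 112 CPM in EC explant negative (0 to 41.7 CPM in the other EC libraries), and Il7r at 38.9 CPM in the same library (0 to 6.34 CPM). Il21r was at 31.7 CPM in EC fresh negative, with 0 to 10.4 CPM in the others. Of the EC libraries, that library also had the highest summed markers of several cell types. These were macrophage (7550 CPM), granulocyte (3330), eosinophil and basophil (1948), megakaryocyte (3881) and erythroid (3435) markers. It had the lowest summed endothelial (498) and mesenchymal (988) markers of the EC libraries. Il22ra1 was at 0.200 CPM (3 counts) in HPSC explant positive and at 0 in the other HPSC libraries. With all others at 0, any count meets the criterion, so this 1 of the 6 flags carries no weight. The part of depth or of other cells in these values was not tested.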

How the results depend on the processing

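The labels repeat no combination, so no fit could rest on repeat libraries, and low receptors were limited by depth: 1 count was worth 0.0452 to 0.377 CPM. DESeq2 called 2 receptors in HPSC against EC, 13 in MC against EC and 1 each in the BRE-GFP, explant, cyclopamine against explant and cyclopamine against fresh comparisons, beside 795, 1246, 371, 484, 172 and 385 of all 16231 genes. Limma-voom called 1 in explant against fresh (165 genes) and 1 in cyclopamine against explant (31 genes). In HPSC against MC, the no-feature share as a covariate left 7 receptors (517 of 16231 genes), and in MC against EC leaving out the 3 libraries of fewest detected genes (chosen after seeing the data) gave 10 (605 of 16379 genes). Leaving out each library in turn gave 3 to 8 receptors in MC against EC, with 3 without EC fresh negative (258 genes) or MC fresh negative (287 genes). It gave 8 to 13 in HPSC against MC, with 8 without MC fresh negative, MC cyclopamine positive or MC explant negative, and 0 to 0 in the other 7 comparisons. Where no number of all genes stands beside such a count, its change cannot be read as particular to the receptors. Csf2rb, Il2rg and Il10rb passed in 18 of 18 such fits in both comparisons, as did Il7r, Ifngr1, Il18rap and Il11ra1 in HPSC against MC. In the latter Il21r passed in 17 of 18, Csf3r in 14, Ifngr2 in 10 and Il1r2 in 4. Il22ra1 passed in 6 of the 15 fits that tested it, and in the others it fell below the low-count filter. In MC against EC Ifngr1 passed in 15 of 18, Ifngr2 in 13 and Il18rap in 12. With the no-feature covariate the fitted log2 change with cyclopamine against explant turned to 2.71 for Il17re and 0.96 for Il12rb1. The no-feature share did not overlap between these cultures (19.5 to 33.01% with cyclopamine, 35.0 to 49.4% in explants). Covariate and culture can therefore not be told apart in this comparison, and the cause was not tested. Over all 932 alternative fits of single receptors, 860 kept direction and side of the threshold and 2 reversed. These fits include receptors far from passing in the main fit, which seldom change side, and interaction tests, which have no direction. The share that kept is therefore no measure of how stable the called receptors were, for which the counts per receptor above stand.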
